A study of Rattus norvegicus with 3 samples.

Results

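The genes described here were grouped under enzymes that clear superoxide and hydrogen peroxide, and not every member is known to clear them itself. They were 8 genes: the superoxide dismutases Sod1 and Sod2, catalase (Cat), the glutathione peroxidases Gpx1 and Gpx2, the peroxiredoxin Prdx2, the mitochondrial thioredoxin Txn2 and the selenoprotein Selenow. They were chosen by name, and every probe set to which the platform annotation gives exactly 1 gene symbol, that of a member, was taken. This gave 14 probe sets of the 8740 rat probe sets on the array, which stand for 8 of 4736 genes with a symbol of their own. Sod1, Cat and Gpx1 had 3 probe sets each and the other members 1 each.

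The study measured total RNA from the thoracic aorta on 3 oligonucleotide arrays, in Sprague Dawley rats. The rats had received allylamine for 20 days at either 35 or 70 mg/kg, or, as the control, water (1 ml/kg), and each of these 3 groups has 1 array. Age, sex, genotype and the number of animals behind an array are not stated in the labels. With 1 array per group no difference below has a replicate check, and no test or p-value is given.

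Superoxide dismutases turn superoxide into hydrogen peroxide and oxygen. Sod1 does so in the cytosol with copper and zinc, and Sod2 does so in the mitochondrial matrix with manganese. Peroxide is then removed by catalase in peroxisomes, by selenium-containing glutathione peroxidases that spend glutathione, and by peroxiredoxins that are reduced again by thioredoxin. Allylamine bears on this pathway because its oxidation by the semicarbazide-sensitive amine oxidase of smooth muscle yields acrolein, ammonia and hydrogen peroxide.

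The promoters of the 4 members with 1 probe set that lay above the floor defined below on all 3 arrays are shown here, since the results turn on these genes. Each is the 250 bases before the annotated start, from RefSeq (GRCr8), 5′ to 3′ along the gene's strand, and none of the 4 windows overlaps an annotated gene. Capitals mark matches on either strand to 4 motifs that a script searched: the antioxidant response element core TGACNNNGC, the GC box GGGCGG, the CCAAT box CCAAT and the TATA box TATAAA.
Sod2, chr1:50050169-50050418, minus strand: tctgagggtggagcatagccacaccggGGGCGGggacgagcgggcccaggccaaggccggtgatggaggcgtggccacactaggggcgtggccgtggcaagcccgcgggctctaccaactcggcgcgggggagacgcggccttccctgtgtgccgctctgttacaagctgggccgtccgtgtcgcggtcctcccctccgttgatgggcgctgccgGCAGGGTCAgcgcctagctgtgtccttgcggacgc
Gpx2, chr6:101230034-101230283, minus strand: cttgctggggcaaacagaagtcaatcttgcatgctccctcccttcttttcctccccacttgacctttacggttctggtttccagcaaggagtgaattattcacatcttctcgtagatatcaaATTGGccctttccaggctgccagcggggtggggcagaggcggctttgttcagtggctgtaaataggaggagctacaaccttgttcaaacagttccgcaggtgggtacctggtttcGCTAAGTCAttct
Txn2, chr7:111390941-111391190, minus strand: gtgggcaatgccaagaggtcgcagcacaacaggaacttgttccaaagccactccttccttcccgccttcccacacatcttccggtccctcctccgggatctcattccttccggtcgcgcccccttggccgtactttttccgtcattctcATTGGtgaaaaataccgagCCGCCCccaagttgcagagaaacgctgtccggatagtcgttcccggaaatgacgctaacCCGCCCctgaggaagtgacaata
Selenow, chr1:85732704-85732953, minus strand: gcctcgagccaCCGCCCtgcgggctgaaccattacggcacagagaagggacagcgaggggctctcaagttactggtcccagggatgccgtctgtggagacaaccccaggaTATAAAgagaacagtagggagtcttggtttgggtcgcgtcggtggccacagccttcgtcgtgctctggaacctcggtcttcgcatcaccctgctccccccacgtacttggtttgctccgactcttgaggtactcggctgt

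The antioxidant response element core was found in the promoters of Sod2, 35 to 27 bases before the start as GCAGGGTCA, and of Gpx2, 13 to 5 bases before the start as GCTAAGTCA, both on the opposite strand. It was held by 10.1% of the 33469 promoter windows from RefSeq, and by 2 of the 8 member windows. The GC box occurred in the windows of Sod1, Sod2, Gpx1, Prdx2, Selenow and Txn2, the last with 2 matches, against 30.5% of all windows. The CCAAT box was found in those of Sod1, Gpx2, Txn2 and Cat, with 4 matches in Cat, against 34.0% of all windows. TATAAA was found in those of Sod1 and Selenow, against 12.9%. The windows of Sod1 and Prdx2, which are not printed, overlap annotated genes. These are Sod1 itself for the first, and Prdx2 itself and Rnaseh2a for the second. Matches in these windows therefore need not lie outside an annotated gene. The share of G and C ran from 50.4% in Gpx2 to 71.6% in Sod2, and the median of all windows was 51.2%. A match describes the letters and is not a mapped binding site.

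All values below are intensities on a linear scale after the 3 arrays had been scaled to a common median. A probe set was called measured in a comparison when it lay above an intensity of 188 on both arrays, the 40th percentile of all scaled values. This floor is a choice of the processing and not a detection call. A gene's log2 difference is the median over its measured probe sets, and at least 2-fold, a log2 difference of 1, is the size named below as higher or lower. Members with a single probe set have no repeat measurement at all. Across the array, measured probe sets of the same gene differed in their log2 differences with an SD of 1.40 for 70 mg/kg against control (490 genes), 1.08 for 35 mg/kg against control (562 genes) and 1.22 between the doses (558 genes). This SD is used below as the only available yardstick of error within an array, and it does not cover the spread between animals.

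The arrays differed in ways that bear on every member. For the 9 probe sets that read the labelled transcripts spiked into every hybridisation, the median ratio to the control array was 3.81 for 35 mg/kg and 28.8 for 70 mg/kg. The 3′ over 5′ ratio of beta-actin, a sign of RNA length, was 0.376 for control, 0.542 for 35 mg/kg and 1.42 for 70 mg/kg. The span from the 5th to the 95th percentile of the log2 values was 6.58, 6.16 and 5.22 in the same order. The part of these shifts in the differences reported here was not tested.

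**Figure D1:**
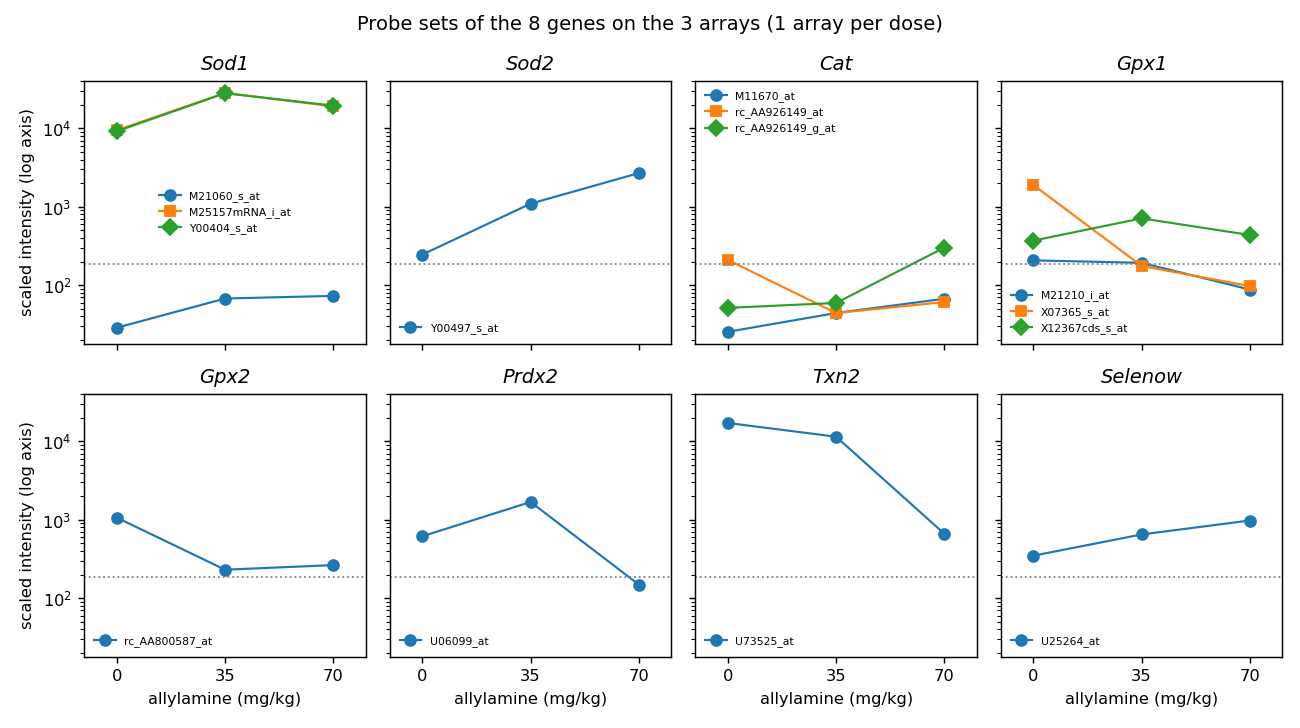
Scaled intensity (log axis) of each of the 14 probe sets against the allylamine dose in mg/kg, with 1 array per dose, 1 panel per gene and 1 line per probe set; the dotted line is the floor at 188. Sod2 and Selenow are lowest in the control and highest at 70 mg/kg, Txn2 runs the other way, and the 3 probe sets of Gpx1 do not run together.

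The mitochondrial superoxide dismutase Sod2 was higher at each dose than in the control and higher still at the larger dose. Its probe set Y00497_s_at read 245 in the control, 1096 at 35 mg/kg and 2692 at 70 mg/kg. The control value lay just above the floor and near the middle of its array, at the 47.3rd percentile, while the 35 mg/kg value lay at the 85.9th and the 70 mg/kg value at the 98th percentile of theirs. Sod2 was thus 11.0-fold higher at 70 mg/kg than in the control, a log2 difference of 3.46, and only 6 of 2462 measured genes had a larger increase. The lower dose gave a 4.47-fold higher reading than the control, a log2 difference of 2.16 that ranked 54th from the top of 2606 genes. At 70 mg/kg it exceeded the 35 mg/kg level by 1.30, or 2.46-fold. All 3 differences were beyond the SD between probe sets of a gene, the last by a small margin (1.30 against 1.22). Because the control reading is so dim, the folds against control rest on its value near the floor, and above a floor at the 55th percentile, an intensity of 316, Sod2 was measured only between the doses.

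The cytosolic superoxide dismutase Sod1 was already among the brightest signals in the control aorta and was highest at 35 mg/kg. The probe set Y00404_s_at read 9169 in the control, 28154 at 35 mg/kg and 19515 at 70 mg/kg. M25157mRNA_i_at read 9490 in the control, 28325 at 35 mg/kg and 19098 at 70 mg/kg. These signals lay above the 99th percentile of every array. The 2 probe sets gave nearly the same values and may share probes, so their agreement is not an independent repeat. The third, M21060_s_at, was below the floor on every array, at 28.6 in the control, 67.5 at 35 mg/kg and 73.0 at 70 mg/kg. From the 2 measured probe sets, Sod1 was higher at 35 mg/kg than in the control by 1.60 (1.58 to 1.62), or 3.03-fold, beyond the SD between probe sets of a gene. At 70 mg/kg it was higher than in the control by 1.05 (1.01 to 1.09), or 2.07-fold, which is within that SD and barely past 2-fold. The level at 70 mg/kg differed from that at 35 mg/kg by -0.55, also within the SD, and by 0.22 after quantile normalization, so the order of the doses depends on the scaling.

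The glutathione peroxidase Gpx2, known mainly from the epithelium of the gut, was at least 2-fold lower at both doses than in the control. Its probe set rc_AA800587_at read 1067 in the control, 231 at 35 mg/kg and 264 at 70 mg/kg. By rank it lay in the upper part of the control array, at the 85.3rd percentile, and near the middle of the others, at the 45.9th (35 mg/kg) and the 49.8th percentile (70 mg/kg). It was 4.04-fold lower at 70 mg/kg than in the control, a log2 difference of -2.01, and 4.62-fold lower at 35 mg/kg, a log2 difference of -2.21, which ranked 46th from the bottom of 2606 genes. Both were beyond the SD between probe sets of a gene. The doses differed by 0.20, well within it. Both treated readings were close to the floor, so the folds rest on the bright control reading.

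Gpx1, the broadly expressed cytosolic and mitochondrial glutathione peroxidase, gave no single answer. Its probe set X07365_s_at read 1901 in the control, 176 at 35 mg/kg and 97.3 at 70 mg/kg. It was therefore at least 10.1-fold lower at both doses when the treated readings are set at the floor. X12367cds_s_at read 370 in the control, 712 at 35 mg/kg and 437 at 70 mg/kg. M21210_i_at read 207 in the control, 193 at 35 mg/kg and 87.8 at 70 mg/kg. The probe sets disagreed in direction: at 35 mg/kg X12367cds_s_at was higher than in the control by 0.94 while X07365_s_at lay below the floor. Over the measured probe sets, Gpx1 differed by 0.24 at 70 mg/kg from 1 probe set and by 0.42 at 35 mg/kg from 2 (-0.11 to 0.94). Neither reached 2-fold, and both leave out the probe set with the strongest shift, because it was above the floor only in the control. With a floor at the 5th percentile, an intensity of 34.4, all 3 probe sets enter and the differences become -1.24 at 70 mg/kg and -0.11 at 35 mg/kg.

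Catalase, the peroxisomal enzyme that splits hydrogen peroxide into water and oxygen, could not be compared. Of its 9 readings, 3 probe sets on 3 arrays, only 2 exceeded the floor. M11670_at read 25.4 in the control, 44.1 at 35 mg/kg and 67.1 at 70 mg/kg. The probe sets rc_AA926149_at and rc_AA926149_g_at, made from the same sequence by their names, went opposite ways. The first read 210 in the control, 44.1 at 35 mg/kg and 60.9 at 70 mg/kg. The second read 51.3 in the control, 59.3 at 35 mg/kg and 301 at 70 mg/kg. They were above the floor in the control only and at 70 mg/kg only, at 1.11 and 1.60 times the floor. No direction can be given for catalase from these readings.

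The peroxiredoxin Prdx2, an abundant cytosolic thiol peroxidase, was highest at 35 mg/kg and lowest at 70 mg/kg. Its probe set U06099_at read 616 in the control, 1689 at 35 mg/kg and 149 at 70 mg/kg. Prdx2 was thus 2.74-fold higher at 35 mg/kg than in the control, a log2 difference of 1.46, beyond the SD between probe sets of a gene. At 70 mg/kg it lay below the floor and was at least 3.27-fold lower than in the control and at least 8.97-fold lower than at 35 mg/kg. Its place on the array was the 73.6th percentile in the control, the 92.2nd with 35 mg/kg and the 31.8th with 70 mg/kg.

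The mitochondrial thioredoxin Txn2, which hands electrons to the mitochondrial peroxiredoxins, had the largest difference of the members. Its probe set U73525_at read 17209 in the control, 11489 at 35 mg/kg and 662 at 70 mg/kg. It was among the brightest probe sets of the control and 35 mg/kg arrays, at the 99.9th and 99.5th percentile, and lay at the 74.5th percentile at 70 mg/kg. Txn2 was 26.0-fold lower at 70 mg/kg than in the control, a log2 difference of -4.70, the second largest decrease of 2462 genes. It was 17.4-fold lower than at 35 mg/kg, a log2 difference of -4.12, the third largest decrease of 2459 genes. Between 35 mg/kg and control it differed by -0.58, within the SD between probe sets of a gene, but by -1.44 after quantile normalization, past 2-fold. The gene has 1 probe set, so this difference rests on a single reading per array.

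Selenow, a small selenoprotein that binds glutathione, was lowest in the control and highest at 70 mg/kg. Its probe set U25264_at read 348 in the control, 651 at 35 mg/kg and 980 at 70 mg/kg. It was 2.81-fold higher at 70 mg/kg than in the control, a log2 difference of 1.49, just beyond the SD between probe sets of a gene (1.40). With 35 mg/kg it differed from the control by 0.90, and the doses differed by 0.59, both within the SD.

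Counted together, 5 of the 6 members measured at 70 mg/kg and in the control differed by at least 2-fold, 3 higher (Sod2, Selenow and Sod1) and 2 lower (Txn2 and Gpx2), where 42.9% of 2462 measured genes did, 19.7% higher and 23.2% lower. At 35 mg/kg, 4 of 7 measured members did, with Sod2, Sod1 and Prdx2 higher and Gpx2 lower, where 33.1% of 2606 genes did, 16.8% higher and 16.3% lower. Between the doses, 2 of 6 did, Sod2 higher and Txn2 lower at 70 mg/kg, where 35.3% of 2459 genes did, 14.4% higher and 20.9% lower. The measured members had a median difference from control of 0.64 (70 mg/kg) and 0.90 (35 mg/kg), and of -0.18 between the doses, where the medians over all measured genes were -0.06, 0.04 and -0.06. At 70 mg/kg this leaves out catalase, Prdx2, at least 3.27-fold lower, and the Gpx1 probe set that was at least 10.1-fold lower. With a floor at the 5th percentile all 8 members are measured there, 3 higher and 4 lower, and their median turns negative. With differences of at least 2-fold this common on the arrays, and with so few members, the counts by themselves do not set the members apart. Beyond the SD between probe sets of a gene lay 4 of 6 members at 70 mg/kg, where 27.1% of all genes did, and 4 of 7 at 35 mg/kg, where 29.3% did. Between the doses 2 of 6 did, where 25.7% of all genes did. Both doses are set against the same control array, so a high or low control reading moves both differences of a gene together.

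**Figure D2:**
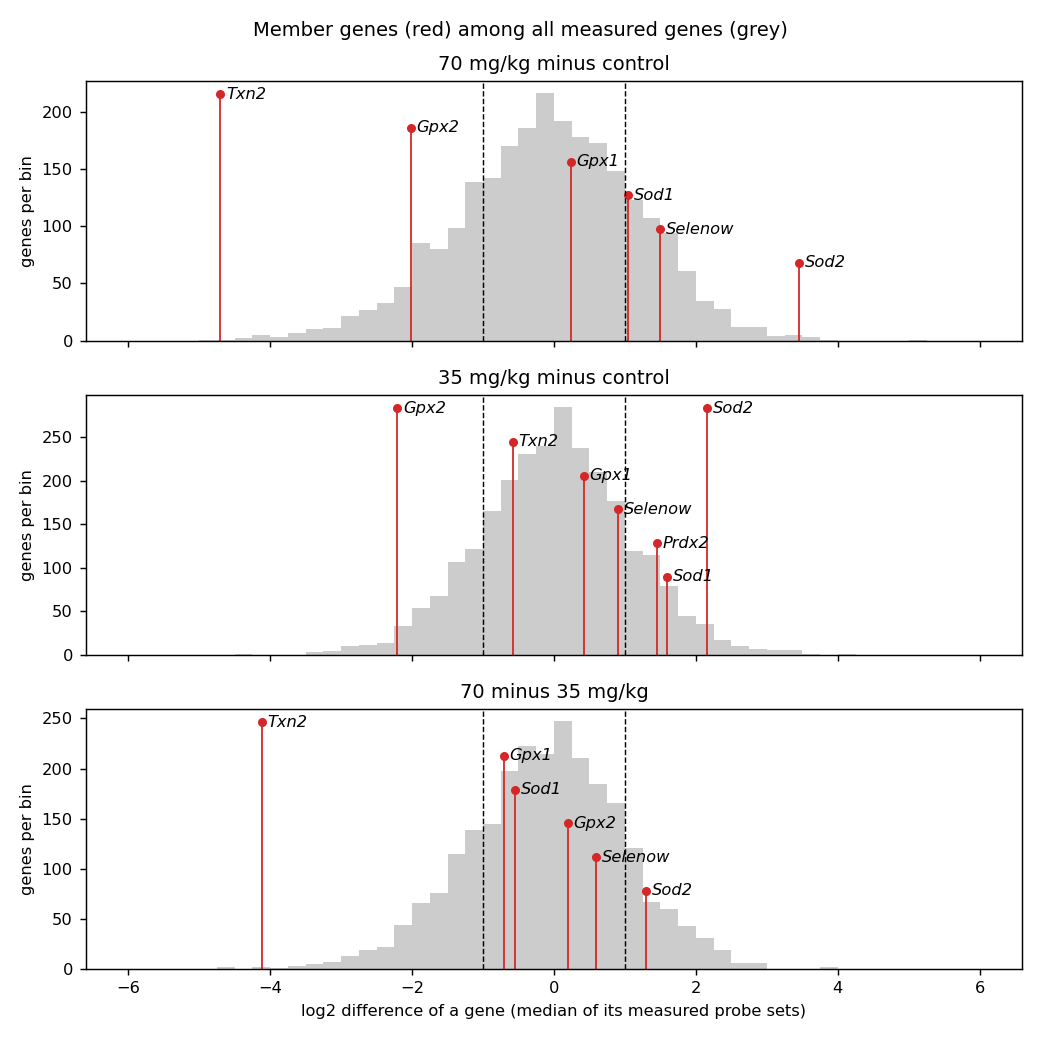
Grey bars count all measured genes by log2 difference (bins of 0.25) for 70 mg/kg minus control, 35 mg/kg minus control and 70 minus 35 mg/kg; red stems mark the measured members, with stem height chosen for legibility only, and dashed lines mark 2-fold. Sod2 at 3.46 and Txn2 at -4.70 lie in the tails of the top panel, while Gpx1 and Sod1 lie within the bulk. Gpx1 is drawn there from 1 of its 3 probe sets.

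The order of the 3 arrays differed between members. Of the 7 member probe sets above the floor on all 3 arrays, Sod2 and Selenow were ordered upward with dose, Txn2 was ordered downward, both Sod1 probe sets and X12367cds_s_at of Gpx1 were highest at 35 mg/kg, and Gpx2 was lowest there. Among all 2612 probe sets with 1 symbol above the floor on all 3 arrays, 18.6% were ordered upward, 21.4% downward, 34.9% were highest at 35 mg/kg and 25.1% lowest there. Sod2 and Txn2, both proteins of the mitochondrion, differed in opposite directions at 70 mg/kg, at 3.46 and -4.70. Gpx1, which is found in the cytosol and in mitochondria, differed by 0.24 on 1 of its 3 probe sets, while another was at least 10.1-fold lower. The selenoproteins did not run together either, with Selenow higher and Gpx2 lower at 70 mg/kg than in the control.

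For each member above the floor on all 3 arrays, the gene with the most similar pair of differences against control was looked up among 2122 genes, by Euclidean distance on the log2 scale over the 3 arrays. Sod2 was nearest to the nicotinic receptor subunit Chrna4 (2.09 at 35 mg/kg and 3.10 at 70 mg/kg, distance 0.36), and Txn2 to Arl6ip4 (-0.32 and -4.37, distance 0.42). The other members had closer neighbours. Sod1 was nearest to the calcium pump Atp2b3 (distance 0.06), Selenow to the thiolase Acat2 (distance 0.05), Gpx2 to Mydgf (distance 0.12) and Gpx1 to dystrophin-related Utrn (distance 0.03).

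Other genes that clear or repair peroxide damage were described from a list of 26, of which 14 had a probe set of their own. Of 10 measured at 70 mg/kg and in the control, 2 were at least 2-fold higher and 1 lower, with a median of -0.05. The glutathione peroxidase Gpx7 of the endoplasmic reticulum was higher by 1.82 and the cytosolic thioredoxin reductase Txnrd1 by 1.39, while the glutathione reductase Gsr differed by -1.58. The mitochondrial partners of Txn2 did not share the size of its difference: the reductase Txnrd2 differed by -0.97 on 2 probe sets (-1.13 to -0.80), and the peroxiredoxin Prdx3 by -0.16 on 1. The other Prdx3 probe set read 117 at 70 mg/kg, below the floor, against 585 in the control. The extracellular dismutase Sod3 differed by 0.29, with its 2 probe sets at -0.54 and 1.12.

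At 35 mg/kg, 1 of the 9 measured genes of this list was at least 2-fold higher than in the control, Gpx7 at 1.05, and 0 were lower, with a median of -0.18. Between the doses, 2 of 11 were higher at 70 mg/kg and 1 was lower, with a median of 0.35. These were the peroxiredoxin Prdx1 at 2.16, Txnrd1 at 1.64 and Gsr at -1.40. Prdx1 read 12.8 in the control, 227 at 35 mg/kg and 1019 at 70 mg/kg, so against the control it has a bound only, which at 70 mg/kg was 5.41-fold higher or more. Bounds of at least 2-fold at 70 mg/kg against control also held for the lipid hydroperoxide peroxidase Gpx4 and for Gpx6, each at least 2.11-fold higher, and for the Prdx3 probe set below the floor, at least 3.10-fold lower. At 35 mg/kg 0 probe sets of the list had such a bound.

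**Figure D3:**
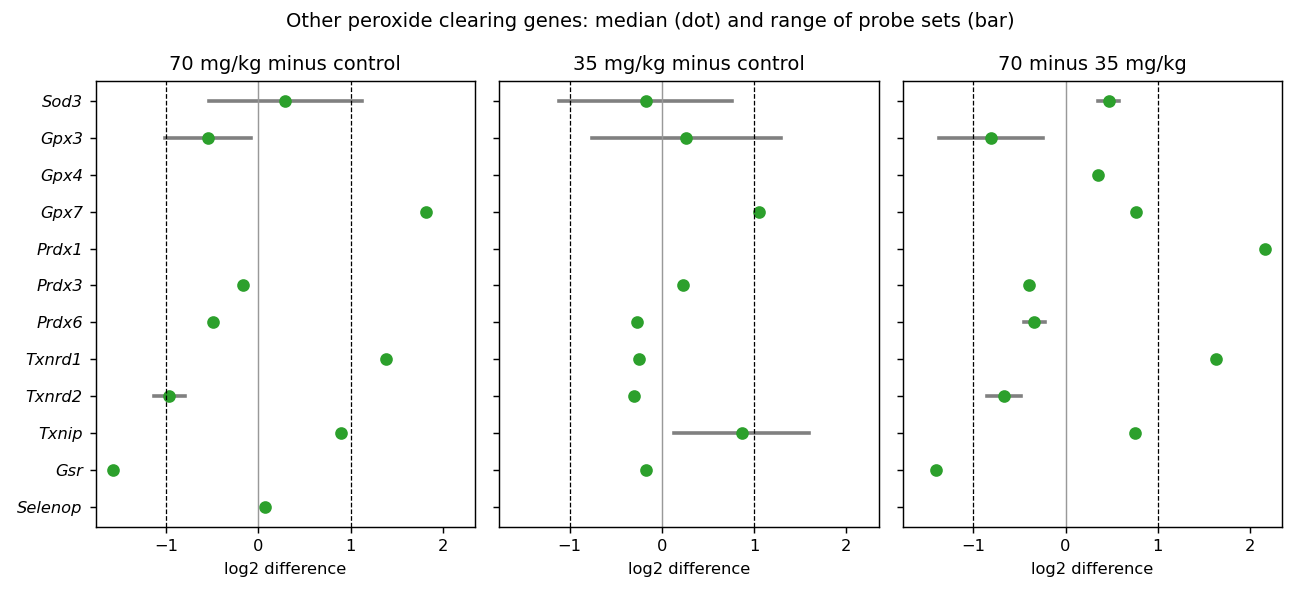
Log2 differences of the 12 measured genes of the list of other peroxide clearing genes, for 70 mg/kg minus control, 35 mg/kg minus control and 70 minus 35 mg/kg; dots are medians over the measured probe sets, bars their range, and dashed lines 2-fold. Gpx7 and Txnrd1 lie above 1 and Gsr below -1 at 70 mg/kg, and most genes lie between the dashed lines at 35 mg/kg.

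Glutathione and NADPH supply was thinly measured, with 2 of its 8 genes on the array above the floor at 70 mg/kg and in the control. The glutathione synthetase Gss differed by -3.63 at 70 mg/kg and by -1.88 at 35 mg/kg against control, and by -1.74 between the doses, on 1 probe set that read 5691 in the control, 1541 at 35 mg/kg and 461 at 70 mg/kg. Its other probe set read 186, 124 and 306, the last above the floor, so the 2 went opposite ways at 70 mg/kg. The modifier subunit of glutathione synthesis Gclm read 113 in the control, below the floor, 917 at 35 mg/kg and 343 at 70 mg/kg. Against the control its lower bounds were therefore 4.87-fold (35 mg/kg) and 1.82-fold (70 mg/kg), both higher, and it differed by -1.42 between the doses. Of the enzymes that make NADPH, Idh1 read 707 and Nnt 565 at 70 mg/kg, against 72.5 and 63.7 in the control, both below the floor there. Idh1 was thus higher by at least 3.75-fold on 1 probe set. Its other probe set lay below the floor on every array, at 145 in the control and 130 at 70 mg/kg. The mitochondrial isocitrate dehydrogenase Idh2 read 129 at 70 mg/kg, against 1847 in the control, on 1 probe set, at least 9.81-fold lower. Its other probe set read 189 at 70 mg/kg, just above the floor, against 75.3 in the control. The malic enzyme Me1 was at least 2.64-fold lower at 35 mg/kg than in the control on 1 of its probe sets.

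Among enzymes that make superoxide or peroxide, 9 of 22 were on the array and 3 were measured at 70 mg/kg and in the control. The endothelial nitric oxide synthase Nos3 was higher by 1.52, but its 3 measured probe sets ran from -0.36 to 1.86. Monoamine oxidase Maoa differed by 0.78, and its 2 measured probe sets lay far apart (-0.15 and 1.71). Dao differed by 0.32 on 1. With 35 mg/kg 0 of 3 measured genes reached 2-fold, and between the doses 0 of 2. Bounds of at least 2-fold against control were held by 1 higher and 2 lower probe sets at 70 mg/kg, and by 2 higher and 0 lower at 35 mg/kg. They belonged to Nos3, whose probe sets gave bounds in both directions at 70 mg/kg, and to the urate oxidase Uox. Of the genes that handle iron and copper, the heme oxygenase Hmox1 differed from the control by -1.27 (70 mg/kg) and -1.28 (35 mg/kg), and the metal transporter Slc11a2 by -2.21 and -1.21. These were the 2 of 4 measured genes of the list beyond 2-fold at each dose, and 0 measured genes were higher. The transferrin receptor Tfrc read 89.0 in the control, below the floor, 573 at 35 mg/kg and 1240 at 70 mg/kg. Its lower bounds against the control were 6.58-fold (70 mg/kg) and 3.04-fold (35 mg/kg), both higher, and it differed by 1.11 between the doses.

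Markers of cell types were set beside these values, since in bulk tissue fewer cells of a type and less RNA per cell cannot be told apart. The summed scaled intensity of the red blood cell list, cells rich in Prdx2, catalase and Sod1, was 5979 in the control, 5312 at 35 mg/kg and 6549 at 70 mg/kg. Of its 4 measured genes at 70 mg/kg, Alas2 was at least 2-fold higher (2.04) and Slc4a1 lower (-1.17), and at 35 mg/kg 0 of 3 reached 2-fold. These counts leave out Hbb, which read 122 in the control, below the floor, 379 at 35 mg/kg and 742 at 70 mg/kg. Its lower bounds against the control were 3.94-fold (70 mg/kg) and 2.01-fold (35 mg/kg), both higher. Epor went the other way at 35 mg/kg. It read 178 there, below the floor, against 644 in the control, a decrease of 3.42-fold or more. Between the doses Alas2 (2.29) and the globin Hba-a3 (1.10) were higher at 70 mg/kg. The smooth muscle list summed to 7727 in the control, 6937 at 35 mg/kg and 9430 at 70 mg/kg, with 8, 6 and 7 of its 8 genes on the array above the floor. In the control 6 of 6 hepatocyte and 7 of 8 striated muscle genes also lay above it, so this count does not tell the labelled tissue apart. Of the 7 smooth muscle genes measured at 70 mg/kg, the calponin Cnn1 (2.86) and the actin Actg2 (1.32) were at least 2-fold higher than in the control. Kcnmb1 (-1.66) was lower, and at 35 mg/kg 1 of 6 was higher and 1 lower.

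The adipocyte list summed to 19602 in the control, 18588 at 35 mg/kg and 8693 at 70 mg/kg, lowest on the array where Txn2 and Prdx2 were lowest. The hepatocyte sum was also lowest there. Without its brightest probe set, which reports leptin (Lep), the adipocyte sum was 11089, 14322 and 8450. The list's measured genes had a median difference of 0.36 at 70 mg/kg against control, and 11, 11 and 12 of its 15 probe sets were above the floor on the 3 arrays, so the lower sum was not shared by the list as a whole. The macrophage and leukocyte list summed to 5407, 5042 and 9734, highest on the array where Sod2 was highest. The smooth muscle, red blood cell and endothelial sums were also highest there. At 35 mg/kg the macrophage and leukocyte sum was below that of the control. The median difference of its 3 measured genes there was 0.65, where that of all genes was 0.04. Bounds of at least 2-fold at 35 mg/kg against control were held by 1 higher and 2 lower probe sets of that list. The endothelial list summed to 3716, 6122 and 6865, and the fibroblast list to 30091, 76884 and 33956. Without 1 probe set of decorin (Dcn) the fibroblast sum was 9151, 14581 and 17774. The hepatocyte list summed to 6049, 7122 and 4181 and the striated muscle list to 5496, 4278 and 5118. At 70 mg/kg against control, each of these lists had 3 to 6 measured genes, of which 1 was at least 2-fold higher, and 1 was lower in all but the endothelial list, where 0 were. Those higher were the thermogenic Ucp1 (2.10) and the chemokine Ccl2 (1.14), Nos3 as given above, Col1a1 (1.05), Alb (1.03) and Myh1 (1.51). Those lower were the lipase Lipe (-1.31), the lysozyme Lyz2 (-1.91), Pdgfra (-2.93), Serpina1 (-1.43) and Acta1 (-1.96). Probe sets of some of these genes disagreed. Of the other Pdgfra probe sets, 1 was at least 3.91-fold higher and 1 at least 1.72-fold lower. Other Alb probe sets gave bounds in both directions, from at least 2.57-fold higher to at least 1.26-fold lower. The 4 measured Col1a1 probe sets ran from 0.33 to 4.70. Probe sets with only a bound are not part of the counts of measured genes. At 70 mg/kg against control, the macrophage and leukocyte list had 3 higher and 0 lower probe sets bounded at 2-fold or more. The adipocyte list had 2 higher and 1 lower, as did the endothelial list. The hepatocyte list had 1 and 1, and the fibroblast, striated muscle and smooth muscle lists had 1 and 0 each. No marker probe set was listed at 0 on any array. The part of the cell types in the differences of the members was not tested.

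The larger differences changed little with the processing. For a member with 1 probe set, other floors and probe set rules either return the same value or drop the gene. Only the scaling of the arrays can move such a value, so the remaining alternatives were no check on it. Over the alternatives that measured the gene, the difference of 70 mg/kg from control ran from 3.46 to 3.92 for Sod2, from -5.22 to -4.54 for Txn2, from -2.01 to -1.86 for Gpx2 and from 1.49 to 1.65 for Selenow. For 35 mg/kg against control, it ran from 2.15 to 2.18 for Sod2, from 1.17 to 1.62 for Sod1, from 1.38 to 1.48 for Prdx2 and from -2.21 to -2.17 for Gpx2. Sod1 at 70 mg/kg against control stayed just past 2-fold, from 1.01 to 1.39. Without the less specific probe sets, Sod1, Sod2 and Gpx1 have no value, since all of theirs carry such a suffix.

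**Figure D4:**
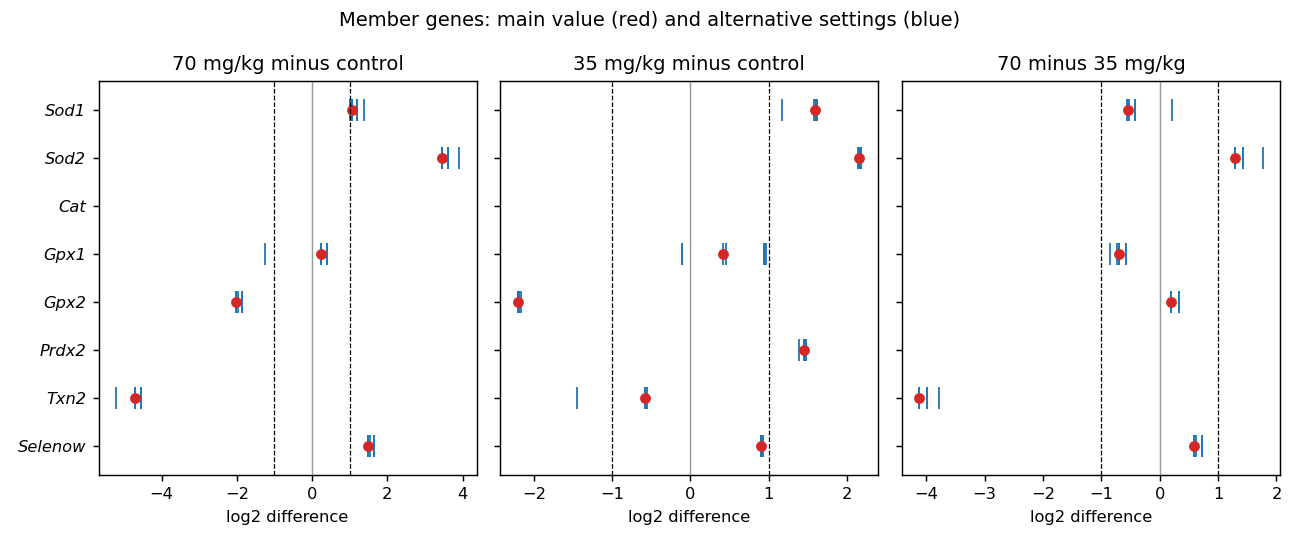
Log2 differences of the members for the 3 comparisons under the main setting (red dots) and under each alternative that measures the gene (blue ticks); dashed lines mark 2-fold, and Cat has no value at the main floor. Sod2, Gpx2, Prdx2, Selenow and Txn2 stay on their side of 0 throughout, and the wide ticks belong to Gpx1, Sod1 and Txn2.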

How the data were processed

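The deposited table holds a linear intensity for each probe set on each array. How the authors computed and scaled it is not stated in the labels. Trimmed by 2% at each end, the deposited values had a mean of 500.4 (control), 500.4 (35 mg/kg) and 500.2 (70 mg/kg), so they had been scaled already. Of 8799 probe sets, 59 controls were left out, and 7006 of the 8740 others have 1 gene symbol in the platform annotation, 308 several and 1426 none. By gene ID, 6985 of the 7006 were found in the GRCr8 gene table. Arrays were scaled linearly to a common median (log2 shifts of 0.06, 0.04 and -0.09 for control, 35 and 70 mg/kg), floored at the 40th percentile and taken to log2 in Python 3.11.15 with numpy 2.4.6 and pandas 2.3.3. The calculation was tested on simulated data with less noise than probe sets of a gene show here. That test checks the calculation and does not bear on calls at the noise of these arrays. Bounds set the array below the floor at the floor. The number of arrays limits the precision.

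Named were all members, genes of each fixed list at least 2-fold in a comparison (up to 5, for most cell type lists at 70 mg/kg against control only), and the nearest gene of each member. The rule on naming does not cover the other genes given for context, which were chosen after their values were seen. The members and lists were chosen with earlier results of these data known. Alternatives were other scalings, floors, folds for a call and probe set rules.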

Additional observations from a re-analysis of the deposited data

How the results depend on the processing

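Each member difference was recomputed under up to 9 alternatives, and 156 of the 157 values moved by less than the SD between probe sets of a gene. The exception is Gpx1 at 70 mg/kg against control, at -1.24 with a floor at the 5th percentile. Many of the values could not move, since floors and probe set rules return the same value for a gene with 1 probe set. The SD is also a wide limit: Txn2 at 35 mg/kg against control went from -0.58 to -1.44 within it. Counts of members at least 2-fold moved more, since few are measured. At 70 mg/kg against control (3 higher, 2 lower), 1 was higher without less specific probe sets (3 measured) and 1 at 3-fold, and 4 were lower with a floor at the 5th percentile and 1 at the 55th. At 35 mg/kg (3 higher, 1 lower), 1 was higher without less specific probe sets, and 2 were lower after quantile normalization, 2 with a floor at the 5th percentile and 0 at the 55th. Between the doses (1 and 1), 0 were higher without less specific probe sets, 2 at 1.5-fold and 0 at 3-fold, and 2 were lower at 1.5-fold and with the 5th or 25th percentile as floor. Over all genes at 70 mg/kg, 486 higher and 571 lower became 1074 and 1165 with a floor at the 5th percentile and 256 and 333 at the 55th. At 35 mg/kg, 439 and 424 became 852 and 982, and 268 and 282. Between the doses, 355 and 514 became 1017 and 1026, 590 and 789 at the 25th percentile, and 194 and 316. The median of glutathione and NADPH supply was -2.05 at 70 mg/kg against control and 0.0886 when the floor was lowered to the 5th percentile. Between the doses it was -1.42, and 0.213 and 0.120 with the 5th and 25th percentile as floor. The cause was not tested. Using only the 2 arrays compared for the scaling and the floor, an alternative chosen after seeing the data, left each member count as it was. No paired analysis was possible because each group has 1 array, and for the same reason no array could be left out.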
